A study of Mus musculus with 4 samples.

Results

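LINE-1 families were followed in mouse embryonic stem cells (ESCs) given lactate, with the young families set against the old. RNA-seq counts were deposited for 2 control libraries and 2 libraries of AB2.2 cells kept in 50 mM lactate for 24 h. All 4 libraries came from the same ESC line grown on MEF feeder cells, in medium with serum, leukemia inhibitory factor, CHIR99021 and PD0325901, and nothing in the labels says that libraries of a group came from separate cultures, so p-values measure the spread between these libraries. The matrix of raw counts has 56488 rows, of which 1153 are families of transposable elements written as name, family and class. The 133 rows whose family is exactly L1 were taken as LINE-1. Of these, 6 have names starting with L1Md and are called young here, and the other 127 are called old. The capital D matters, since L1MD1, L1MDa and their relatives are old mammalian families. All 6 young and 121 old families passed the filter on low counts. The 6 that did not, HAL1_SS, L1M2a1, L1M3a, L1M3c, L1M6B and X9_LINE, had at most 15 reads in any library.

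LINE-1 elements copy themselves through an RNA intermediate. A full-length copy carries its own promoter and encodes ORF1p, an RNA-binding protein, and ORF2p, an endonuclease and reverse transcriptase. In the mouse the L1Md_A, L1Md_T and L1Md_Gf families hold copies that can still move, while L1Md_F is an older, largely inactive lineage. The Lx families spread in early murine rodents, and the L1M families are older and shared among mammals. Most old copies are truncated fragments, many of them inside introns and untranslated regions, so their sequence is often read as part of other transcripts. ESCs normally hold LINE-1 in check by DNA methylation, by histone H3K9 methylation and the HUSH complex, and by factors that act on its RNA and protein. A family row pools all copies, its reads come from both full-length and fragmentary copies, and neither the program that counted these rows nor its use of strand or of reads that match several families is given in the sources used here. Young copies are nearly identical, so the split of reads between young families is uncertain. Family lengths were not available for scaling, and levels are therefore compared between libraries and not between families.

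Each library held between 18067562 and 19077885 reads on genes. The 2 control libraries had 448828 and 338194 LINE-1 reads, replicate 1 before replicate 2 here and throughout, and the 2 lactate libraries had 444935 and 330647. Such reads made up between 19.9% and 25.9% of the reads on transposable elements. Levels are given as CPM, counts per 1000000 gene counts after TMM scaling on genes alone. Young families summed to 16048 and 10360 CPM in the control libraries and to 13128 and 8310 CPM in the lactate libraries. Old families summed to 9864 and 7435 CPM in the control libraries and to 10769 and 8424 CPM in the lactate libraries. Both sums were lower in replicate 2 than in replicate 1 of either condition, and the ranges of control and lactate overlapped. The mitochondrial share of gene counts was 5.48% and 2.43% in control, beside 5.72% and 2.82% in lactate. It thus moved with the replicate number in the same direction as LINE-1, and its part in the result was not tested. In bulk RNA, a change in the number of cells that express a family cannot be told apart from a change in its RNA per cell.

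The first comparison asks whether lactate changed LINE-1 RNA. No LINE-1 family was called by edgeR's quasi-likelihood test at an adjusted p-value under 0.05, with or without the requirement of a change above 2-fold. That model held no term for the replicate number, and the calls change when it is added as a block, as given in the closing section. Of all 19593 rows tested, 0.48% were higher and 0.367% lower at the adjusted p-value alone, and 0.475% and 0.322% at more than 2-fold. DESeq2 called 0 of the 122 LINE-1 families to which it gave an adjusted p-value, where it called 2.03% of all such rows higher and 2.82% lower. At an unadjusted p-value under 0.05, edgeR gave 2 families higher and 2 lower, all of them old. The same threshold took 11.4% of all rows tested as higher and 10.8% as lower, and 5.36% and 0.966% of the transposable element families. The young families had a median log2 fold change (lactate over control) of −0.074, with 5 of 6 below 0. The old families had a median of 0.17, with 101 of 121 above 0. The median over all rows tested was 0.021, and over the other transposable element families it was 0.14. Leaving out single libraries turned the signs of the young and the old median. The young median was 0.14 without control replicate 1, and the old median was −0.026 without lactate replicate 1. Such fits have no replicate term and leave the replicate numbers uneven between the groups. Within the libraries numbered 1 and 2, the young medians were −0.078 and −0.083 and the old medians 0.16 and 0.19.

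L1Md_A, whose promoter is built from repeated monomers, had the most reads of the young families. Its level was 7957 and 5045 CPM in the control libraries and 5785 and 3474 CPM in the lactate libraries. Each lactate library lay below the control library of the same number, but the groups overlapped, with replicate 2 lower than replicate 1 in both conditions. The means were 6501 ± 2059 CPM in control and 4629 ± 1634 CPM in lactate (SD, n = 2). On the log2 scale the change was −0.49 ± 0.32 (SE; adjusted p-value 0.421, edgeR), and the 95% interval ran from 0.416-fold to 1.22-fold. It had the third-lowest fold change of the 127 LINE-1 families tested.

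L1Md_T, the other large family with active copies, stood at 6155 and 3917 CPM in control and at 5481 and 3405 CPM in lactate. As for L1Md_A, each lactate library lay below the control library of the same number, but the groups overlapped. The L1Md_T means of 5036 ± 1582 and 4443 ± 1467 CPM (SD, n = 2) differed by less than the SDs. These SDs include the difference between replicate 1 and replicate 2, which had the same direction in both conditions. The log2 change was −0.18 ± 0.31 (SE), and the 95% interval ran from 0.525-fold to 1.48-fold. L1Md_Gf, the third family with active copies, had 207 and 163 CPM in control and 194 and 145 CPM in lactate. Its log2 change of −0.12 was likewise smaller than its SE of 0.20, with each lactate library again below the control library of the same number.

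The remaining 3 young families carried names of the F lineage and were nearly level between conditions. L1Md_F2 had 1235 and 864 CPM in control and 1181 and 914 CPM in lactate, a log2 change of −0.0038. L1Md_F3 had 372 and 258 CPM in control and 361 and 257 CPM in lactate, a log2 change of −0.025. The signs of both families turned with the scaling, to 0.028 and 0.0074 with upper-quartile factors and to 0.064 and 0.042 with gene totals alone. L1Md_F had 122 and 112 CPM in control and 126 and 114 CPM in lactate, a log2 change of 0.039. The adjusted p-values of the 6 young families ranged from 0.421 to 0.994 (edgeR). The 95% interval lay within a 2-fold change in both directions for 5 of the 6, the exception being L1Md_A.

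**Figure D1:**
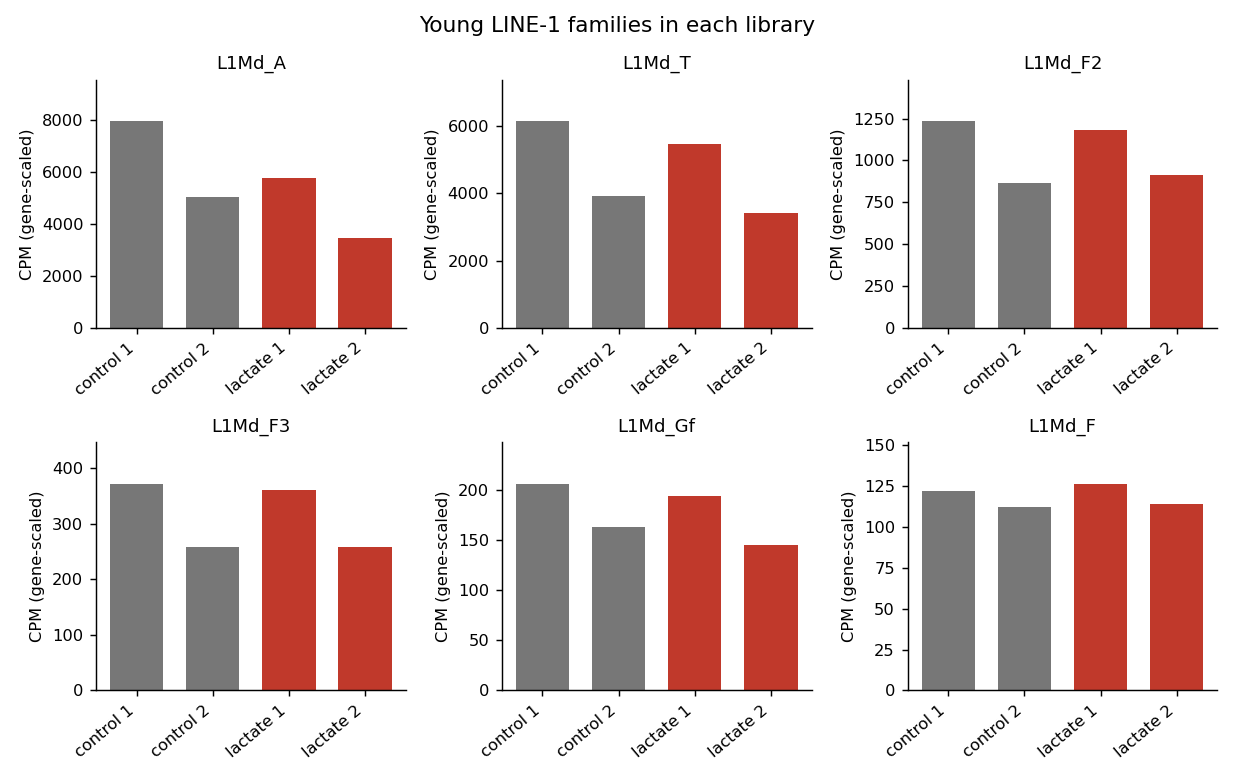
CPM (y axis, linear from 0) of the 6 young LINE-1 families in the 4 libraries (x axis), 1 bar per library, control in grey and lactate in red, with no error bars because each bar is 1 library. In every panel replicate 2 is lower than replicate 1 of the same condition, and L1Md_A ranges from 3474 CPM in lactate replicate 2 to 7957 CPM in control replicate 1.

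A ratio of young to old reads within a library does not depend on how libraries are scaled. The ratio was 1.63 and 1.39 in the control libraries, against 1.22 and 0.987 in the lactate libraries. Both lactate libraries lay below both control libraries. The means were 1.51 ± 0.165 in control and 1.10 ± 0.164 in lactate (SD, n = 2), and the exact two-sided permutation test gave p = 0.333, the smallest p that 2 libraries against 2 can give. In lactate the ratio was 25.1% lower within replicate 1 and 29.2% lower within replicate 2. Written as a share, young families took 61.9% of LINE-1 reads in control replicate 1 (95% Wilson interval 61.8 to 62.1), 58.2% in control replicate 2 (58.1 to 58.4), 54.9% in lactate replicate 1 (54.8 to 55.1) and 49.7% in lactate replicate 2 (49.5 to 49.8). These intervals cover counting error only, and the libraries of a group differed from each other by more than that.

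Both parts of the ratio moved. Within the libraries numbered 1 and 2, the summed young CPM changed by −0.29 and −0.32 on the log2 scale with lactate. The summed old CPM, the denominator, changed by 0.13 and 0.18. Among the young families, the shift lay mostly in L1Md_A and L1Md_T, which together held between 82.8% and 87.9% of young reads. L1Md_A reads per old read were 0.807 and 0.679 in control and 0.537 and 0.412 in lactate, lower by 33.4% and 39.2% within the same-numbered libraries. L1Md_T reads per old read were 0.624 and 0.527 in control and 0.509 and 0.404 in lactate, lower by 18.4% and 23.3%. L1Md_Gf was lower by 14.0% and 21.3% on the same measure, and L1Md_F2 by 12.5% and 6.71%. L1Md_F3 reads per old read were 0.0377 and 0.0346 in control and 0.0336 and 0.0306 in lactate. For these 5 families both lactate libraries lay below both control libraries on this ratio, although the CPM of L1Md_F2 and L1Md_F3 was nearly level between conditions. L1Md_F differed by 5.02% and 10.2% with overlapping groups. Among all rows tested, 25.1% were lower without overlap on this ratio, as were 16.2% of all transposable element families and 16.5% of the old LINE-1 families. The 6 ratios share 1 denominator and are not independent of each other.

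The 2 largest young families also differed from each other. Reads on L1Md_A numbered 1.29 per L1Md_T read in both control libraries. In lactate the ratio was 1.06 in replicate 1 and 1.02 in replicate 2. The SD between replicates was 0.00332 in control and 0.0250 in lactate, beside a difference of −0.25 between the means, and the exact two-sided permutation p was again 0.333. Unlike the levels of either family, this ratio hardly moved with the replicate number, since it was 0.363% lower in replicate 2 of control and 3.35% lower in replicate 2 of lactate. The pair was singled out after its values were seen.

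**Figure D2:**
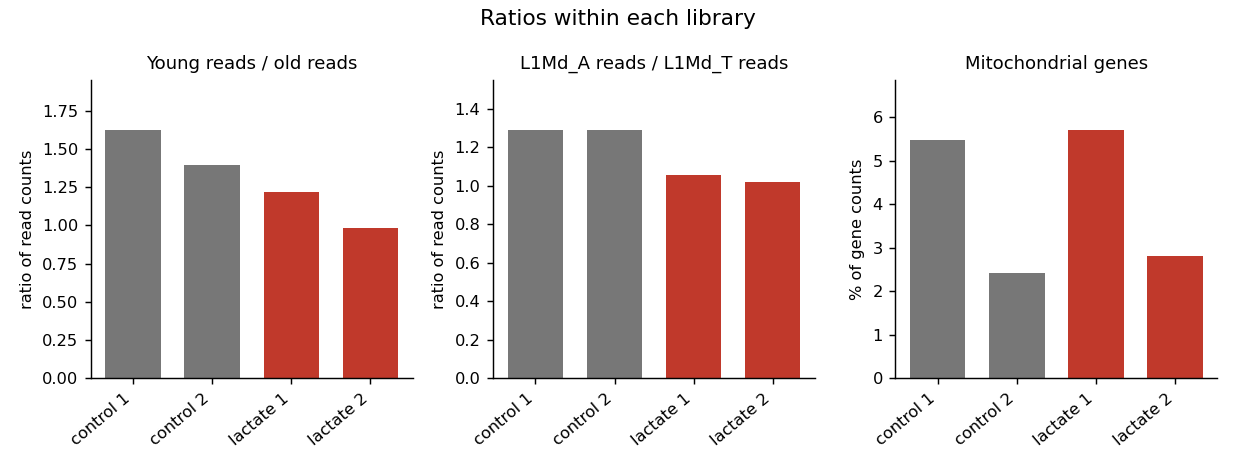
Ratios of read counts (left and middle, y axes from 0) and the percent of gene counts on mitochondrial genes (right) in the 4 libraries, 1 bar per library, control in grey and lactate in red. Young reads per old read and L1Md_A reads per L1Md_T read are lower in both lactate libraries than in both control libraries, while the mitochondrial share separates replicate 1 from replicate 2.

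Old families had positive fold changes more often than not, at small sizes. By name, 19 of 21 Lx families, 10 of 11 families named L1_Mus, L1_Mur, L1_Rod or L1VL, and 66 of 81 L1M families were above 0, with medians of 0.15, 0.17 and 0.18 on the log2 scale. For the other transposable element families tested, 607 of 805 were above 0. None of the old families was called, and the 95% intervals of 100 of the 121 lay within a 2-fold change. The groups did not overlap for 13 old families that were higher with lactate and for 4 that were lower, against 27.1% and 24.9% of all rows tested and 27.8% and 6.01% of the transposable element families. The 13 were L1MEh, L1ME4b, L1M3e, L1M1, L1ME3B, L1M4b, L1_Mur1, L1M3de, L1ME3C, L1MCb, L1PB4, L1M and L1M6, and the 4 were L1M3b, L1M2c, L1MEg and L1MEi.

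Among the old families with the most reads, all belonging to rodent lineages, Lx8 stood at 712 and 583 CPM in control and at 797 and 652 CPM in lactate. Its log2 change was 0.16 ± 0.18 (SE). L1_Mus3 stood at 753 and 509 CPM in control and at 781 and 593 CPM in lactate, with a log2 change of 0.12 ± 0.24 (SE). The groups overlapped for both. L1_Mus1, Lx9, Lx7, L1_Mur3, Lx, L1_Mus2 and Lx6 had log2 fold changes between 0.06 and 0.26. L1_Mm, which the naming rule places with the old, was the only one of the 10 below 0, at −0.09, with 383 and 205 CPM in control and 353 and 201 CPM in lactate.

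Among the old families, the most extreme fold changes belonged to families with few reads. L1M6, an ancient mammalian family, had 23 and 15 reads in control and 47 and 38 in lactate, a log2 change of 1.07 ± 0.35 (SE; adjusted p-value 0.150, edgeR). Both lactate libraries were higher than both control libraries. L1ME5, L1M, L1PB4 and L1MCb followed at 0.80, 0.67, 0.63 and 0.53. L1M3b had 76 and 57 reads in control and 34 and 43 in lactate, a log2 change of −0.88 ± 0.29 (SE; adjusted p-value 0.153, edgeR). L1M7, L1M2b, L1M2c and L1ME3E followed at −0.52, −0.45, −0.42 and −0.38. Of the 4 families with an unadjusted p-value under 0.05, namely L1M6, L1M, L1M3b and L1MEg, only the last had more than 91 reads in any library. L1MEg had 1385 and 1718 reads in control and 1159 and 1371 in lactate, a log2 change of −0.37 ± 0.14 (SE; adjusted p-value 0.194, edgeR).

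**Figure D3:**
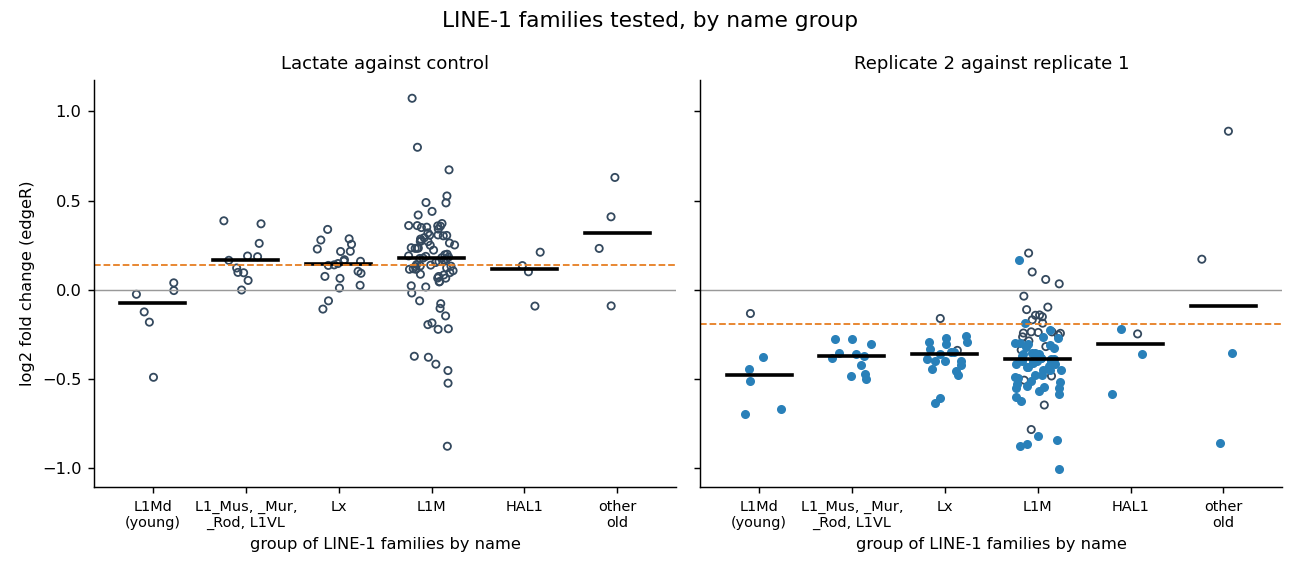
Log2 fold change from edgeR (y axis) of the 127 LINE-1 families tested, by name group (x axis), for lactate against control on the left and replicate 2 against replicate 1 on the right. Each point is 1 family, filled in blue at an adjusted p-value under 0.05 and open otherwise, black bars are group medians and the dashed line is the median of the other transposable element families. No point is filled on the left, and on the right 95 are, 94 of them below 0. The lactate fit has no replicate term, while the replicate fit has a condition term, so the numbers of filled points are not directly comparable.

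The second comparison sets the libraries numbered 2 against those numbered 1, with the condition as a term in the model. The labels do not say what libraries of the same number share, so culture, preparation and sequencing cannot be told apart here. LINE-1 RNA was lower in replicate 2. Of the 127 families tested, 94 were lower and 1 higher at an adjusted p-value under 0.05 (edgeR), while 17.4% of all rows tested were lower and 16.1% higher. Among transposable element families of every class, 35.6% were lower and 1.29% higher. DESeq2 called 64 of 107 LINE-1 families with an adjusted p-value lower and 0 higher, where it called 10.8% of all such rows lower and 7.38% higher. The fit had 1 residual degree of freedom per row and drew its spread mostly from the other rows. Without the condition term no LINE-1 family passed, but neither did any other row, with 0 of all rows tested called. Fits with 1 library left out also lack that term, and their calls are not given.

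All 6 young families were lower in replicate 2 than in replicate 1, 5 of them at an adjusted p-value under 0.05. L1Md_A changed by −0.70 ± 0.062 on the log2 scale (SE; adjusted p-value 3.79e-09, edgeR), and the fall was seen in control (−0.66) and in lactate (−0.74). L1Md_T changed by −0.67 (adjusted p-value 5.87e-09, edgeR). L1Md_F3, L1Md_F2 and L1Md_Gf followed at −0.51, −0.44 and −0.38. L1Md_F was the exception, at −0.13 with an adjusted p-value of 0.0909. For all 6 young families both libraries numbered 2 lay below both numbered 1, and so did those of 97 old families. The opposite order was found for 1 old family, L1P5. Of all rows tested 20.1% were lower and 19.8% higher in this way, and of the transposable element families 50.1% and 4.4%. The young median was −0.48 and the old median −0.37, beside −0.19 for the other transposable element families and 0.01 for genes. Those others were not alike. Among the L2, ERVK, ERV1, ERVL, ERVL-MaLR, Alu, B2, B4, MIR and DNA transposon families, medians ran from −0.43 (B2) to −0.047 (MIR).

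The old families fell together across lineages. At an adjusted p-value under 0.05, 19 of 21 Lx families, all 11 of the L1_Mus, L1_Mur, L1_Rod and L1VL group, 54 of 81 L1M families and 3 of 4 HAL1 families were lower. Of the 83 old families tested with a mean above 10 CPM, 75 were lower, and of the 38 at or under that level 14 were. L1_Mm had the steepest fall of the abundant families, from 383 to 205 CPM in control and from 353 to 201 CPM in lactate, a log2 change of −0.86 ± 0.059 (SE; adjusted p-value 2.95e-11, edgeR). Lx8 at −0.29 and L1_Mus3 at −0.48 were closer to the median. Of the LINE-1 families only L1ME5 was called at more than 2-fold, while 0.812% of all rows tested were lower and 1.1% higher by that rule. It had 83 and 38 reads in control and 141 and 83 in lactate, and its log2 change of −1.002 was just past the threshold. L1MEg1, L1MEj and L1M7 followed at −0.88, −0.87 and −0.84. L1MEg was the family that went the other way, with 80.0 and 90.4 CPM in control and 62.2 and 69.4 CPM in lactate, a log2 change of 0.17 (adjusted p-value 0.0425, edgeR). DESeq2 gave it an adjusted p-value of 0.397. L1P5, L1M, L1PB4 and L1M3de also had positive values, from 0.10 to 0.89, and did not pass.

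**Figure D4:**
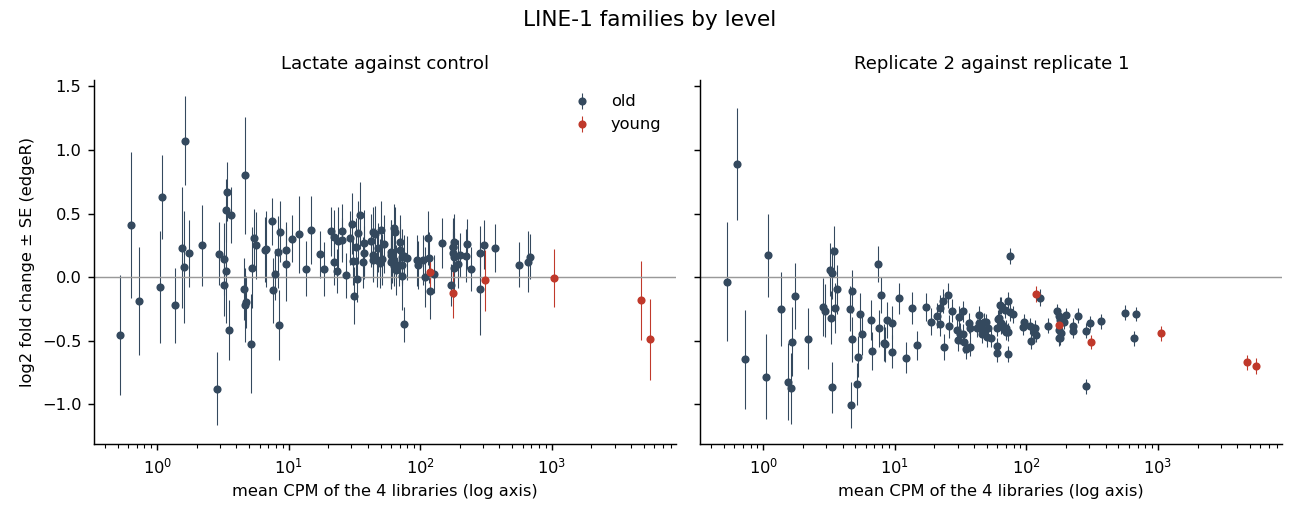
Log2 fold change with its standard error (y axis, edgeR) against the mean CPM of the 4 libraries (x axis, log axis) for the 127 LINE-1 families tested, young in red and old in dark blue. In the replicate comparison on the right L1Md_A and L1Md_T, at the far end of the level axis, stand at −0.70 and −0.67, and in the lactate comparison on the left they stand at −0.49 and −0.18 with wider errors.

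The replicate difference was larger in size than the lactate difference for 108 of the 127 families tested. Summed by name, the Lx families stood at 3741 and 2905 CPM in control and at 4089 and 3241 CPM in lactate. The L1M families stood at 3006 and 2308 CPM in control and at 3400 and 2643 CPM in lactate. In both groups the replicate 2 library of lactate lay below the replicate 1 library of control. The ratio of young to old reads given above was also lower in replicate 2 than in replicate 1 of either condition.

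**Figure D5:**
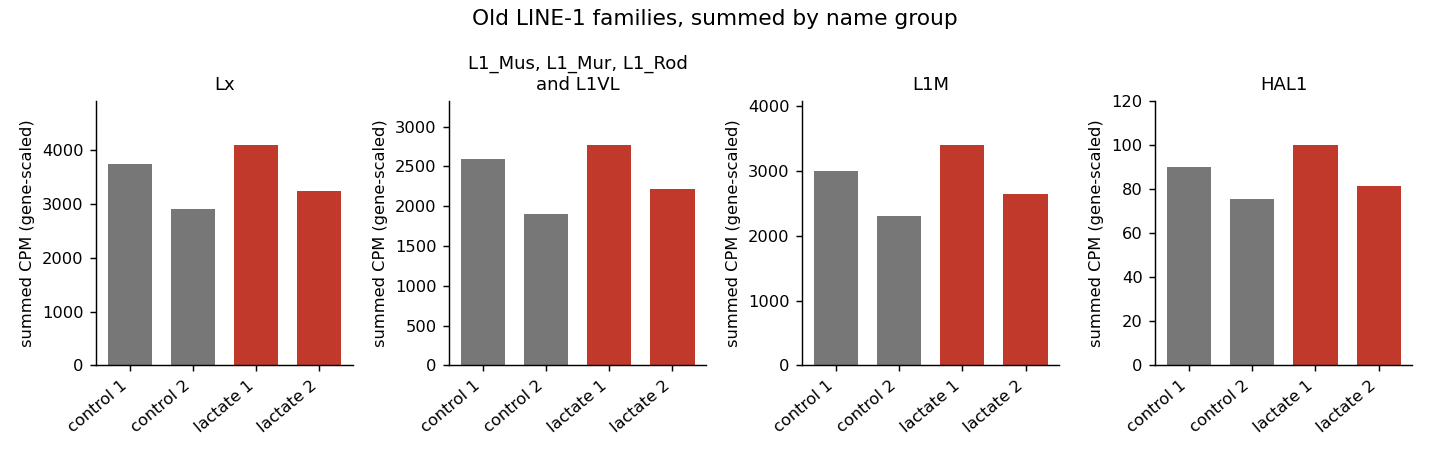
Summed CPM (y axis, linear from 0) of 4 name groups of old LINE-1 families (Lx, the L1_Mus, L1_Mur, L1_Rod and L1VL group, L1M and HAL1) in the 4 libraries (x axis), 1 bar per library, control in grey and lactate in red. In these 4 groups lactate replicate 1 is the highest library and control replicate 2 the lowest, as for Lx at 4089 and 2905 CPM, while the 5 families with other names, not drawn, are highest in control replicate 1 at 434 CPM against 412 CPM in lactate replicate 1.

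Genes that restrain or assist LINE-1 were listed by role, and 42 of 43 passed the filter. None was called in the lactate comparison by edgeR, with 16 above and 26 below 0. At an unadjusted p-value under 0.05, 8 were higher and 6 lower, beside the 11.4% and 10.8% of all rows tested given above. DESeq2 gave 5 of them an adjusted p-value under 0.05, with Tdrd9, Mov10l1 and Chd5 higher and Ehmt2 and Apobec3 lower, beside the 2.03% and 2.82% of all its rows. All 7 piRNA pathway genes were above 0, with a median log2 fold change of 0.69. The piRNA pathway silences transposons in the germline, and Tdrd9, an RNA helicase of that pathway, stood at 3.87 and 3.47 CPM in control and at 8.92 and 9.16 CPM in lactate (adjusted p-value 0.0514, edgeR). Mov10l1 and Asz1, which act in piRNA production, both had a log2 fold change of 0.96. Of the 7 genes of DNA methylation, 5 were below 0, with a median of −0.41. Dnmt3b, a de novo DNA methyltransferase, stood at 118 and 115 CPM in control and at 75.6 and 79.1 CPM in lactate, a log2 change of −0.59 (adjusted p-value 0.0723, edgeR). Ehmt2, which encodes the H3K9 methyltransferase G9a, had −0.84, and Apobec3, a cytidine deaminase that restricts retroelements, had −0.80. The 13 genes of heterochromatin and the HUSH complex had a median of −0.029, 9 genes of RNA and cytoplasmic restriction had −0.15, and 6 positive factors and LINE-1-derived genes had −0.12. None of these values tests an effect on LINE-1.

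Markers were read beside these results. All 10 ESC markers passed the filter, and their summed level ranged from 5775 to 6980 CPM. Of these 10, 2 were higher and 2 lower in replicate 2 at an adjusted p-value under 0.05 (edgeR). The shares of all rows tested were 16.1% and 17.4%. Among the ESC markers Dppa5a moved most, at 541 and 981 CPM in control and 563 and 1386 CPM in lactate. The 12 feeder fibroblast markers passed too and summed to 704 and 946 CPM in control and to 714 and 763 CPM in lactate. Their levels differed widely, from Lum at 7 to 14 reads per library to Col1a1 at 193 to 293 CPM. The sum was higher in replicate 2 of each condition, with 8 markers above and 4 below 0 in the replicate comparison. At an adjusted p-value under 0.05 (edgeR), 5 of the 12 were higher and 0 lower, beside 16.1% and 17.4% of all rows tested. The share of feeder RNA was not measured. Of 11 markers of cleavage-like cells, MERVL-int among them, 7 were tested, and all 7 were above 0 with lactate. edgeR called none of them. DESeq2, which gave Usp17la no adjusted p-value, called 5 higher, beside 2.03% of all its rows. The 5 were MERVL-int, MT2_Mm, Zscan4c, Zscan4d and Zscan4f. The 11 markers summed to 689 and 706 CPM in control and to 1262 and 1374 CPM in lactate. Nuclear-retained RNAs summed to between 1115 and 1280.4 CPM, with 4 of 8 tested above 0 in each comparison. No list had a marker at 0 in every library, and the part of these lists in the LINE-1 values was not tested. No sequence of a LINE-1 family was at hand, and none is shown.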

How the data were processed

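The measurements were RNA-seq reads of 4 libraries. Per the labels and methods, adapters were removed with cutadapt 1.16 and alignment to the mouse genome was done with STAR, which also gave the counts in annotated exons (GENCODE release M23). How the transposable element rows were counted is not given in the sources used here. The authors deposited raw counts, not normalized, for 55335 genes and 1153 families of transposable elements. They also deposited RSEM expected counts for genes, which were rounded and used here only for an alternative scaling. The deposited TPM and FPKM were not used. Gene symbols came from the RSEM tables.

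The software was R 4.3.3, edgeR 4.0.16 and DESeq2 1.42.0. Rows that passed filterByExpr by condition (18661 genes and 932 families) were fitted together with the quasi-likelihood test in its legacy form. Library sizes were gene totals times TMM factors from genes, which ranged from 0.959 to 1.04. P-values were adjusted by Benjamini-Hochberg over all 19593 rows. Lactate was compared with control without other terms, and replicate 2 with replicate 1 beside the condition. A standard error is the log2 fold change over the square root of F. The tests were tried on simulated counts. Families were named by a rule: every young family, the 10 old families with the highest mean CPM, the 5 highest and 5 lowest old fold changes in each comparison, and those called at more than 2-fold. The families whose groups did not overlap and those under the filter were named after their values were seen. The members, lists and rules were chosen with earlier results of these data known. Over the LINE-1 families the chi-square between the libraries of a group was 17.6 times its degrees of freedom in control and 28.2 times in lactate, so no library was a copy of another.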

Additional observations from a re-analysis of the deposited data

How the results depend on the processing

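In the lactate comparison, no LINE-1 family had an adjusted p-value under 0.05 under DESeq2, the other scalings and filters, transposable element rows alone, or edgeR without its legacy form. With the replicate number as a block, 53 families were higher and 6 lower, 1 of them higher by more than 2-fold, while 44.1% of all rows tested passed. The young families among the lower were L1Md_A and L1Md_T. The differences between replicates correlated between conditions (r = 0.56 over all rows, 0.44 over LINE-1 families), but 2 pairs and unexplained numbers do not establish pairing. With 1 library left out, 1 group holds a single library, so only sizes of change are given for these fits. The median log2 fold change of young families ranged from −0.34 without lactate replicate 1 to 0.14 without control replicate 1. That of old families ranged from −0.026 without lactate replicate 1 to 0.36 without control replicate 1. These fits have no replicate term and leave the replicate numbers uneven between the groups. Within the libraries numbered 1 and 2, the young medians were −0.078 and −0.083 and the old medians 0.16 and 0.19. By scaling, the young median was −0.079 with DESeq2, −0.079 with RLE factors, −0.042 with upper-quartile factors, −0.0078 with gene totals alone, −0.085 with transposable elements included, −0.10 with RSEM counts and −0.087 without mitochondrial genes. The old median was 0.20 with upper-quartile factors, 0.23 with gene totals alone and 0.14 with RSEM counts. L1Md_F2 and L1Md_F3 changed sign with upper-quartile factors (0.028 and 0.0074) and gene totals alone (0.064 and 0.042), and L1Md_F2 with the block (0.0070). With 1 library left out, the lactate values turned sign for L1Md_F2 (−0.24 to 0.27), L1Md_F3 (−0.31 to 0.26), L1Md_F (−0.055 to 0.11), L1Md_Gf (−0.37 to 0.070), L1Md_T (−0.59 to 0.18), L1_Mm (−0.57 to 0.43), L1_Mur3 (−0.029 to 0.44), L1_Mus1 (−0.073 to 0.29), L1_Mus3 (−0.13 to 0.43), Lx6 (−0.078 to 0.39), Lx8 (−0.012 to 0.31) and Lx (−0.096 to 0.24).

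In the replicate comparison, the 1 higher call was 0 with DESeq2, RLE factors, RSEM scaling, mitochondrial genes left out, no filter and edgeR without its legacy form. Without the condition term, 0 families were higher or lower, where 0 of all rows tested passed, and the cause was not tested. Fits with a library left out also drop that term, and only their sizes of change are given. The 1 call above 2-fold was 0 with upper-quartile factors, gene totals alone, transposable elements in the scaling, edgeR without its legacy form and no condition term. The young median was −0.42 and the old −0.32 with gene totals alone, and with 1 library left out they ranged from −0.52 to −0.43 and from −0.48 to −0.29. With 1 library left out, L1M3de (−0.14 to 0.32), L1M (−0.22 to 0.53), L1MEg (−0.035 to 0.35) and L1PB4 (−0.38 to 0.56) turned sign.

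Of the genes acting on LINE-1, edgeR without the block called 0, and DESeq2 called 3 higher and 2 lower (2.03% and 2.82% of all its rows). With the replicate block, 13 were higher and 15 lower, where 44.1% of all rows tested passed in either direction. With 2 libraries a group, the median 95% interval of a family's lactate fold change spanned 0.52 on either side on the log2 scale.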
